A study of Mus musculus with 42 samples.

Results

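A set of 10 genes encoding the adaptors and kinases that carry the signal of Toll-like receptors (TLRs) into the macrophage was followed in chromatin immunoprecipitation sequencing data: Myd88, Tirap, Ticam1, Ticam2, Irak1, Irak2, Irak3, Irak4, Traf1 and Traf6. They were chosen by symbol from 21884 protein-coding genes measured, and all 10 had RNA polymerase II (Pol II) and acetylated histone H3 lysine 27 (H3K27ac) signal in every library of those antibodies. The cells were bone marrow-derived macrophages (BMDMs) of male C57Bl6/J mice of 6 to 12 weeks, grown for 7 days in L929-conditioned medium. WT cells came from littermates of the Nur77-KO animals, in which the loxP-flanked Nr4a1 gene, encoding the nuclear receptor Nur77, had been deleted in the whole body by a Cre recombinase under the CMV promoter that was then bred out. This description is the study's, as the genotype label of these samples reads only cre and their titles KO. Both genotypes were untreated (0 h) or given lipopolysaccharide (LPS) at 100 ng/ml for 1 h or 18 h, which made 6 groups with 3 libraries per antibody and 1 input library each. The comparisons ask how LPS changes Pol II and H3K27ac at these genes and whether loss of Nur77 changes that response. The study's methods for these libraries speak of biological replicates, but the labels do not say whether the 3 libraries of a group came from separate animals. The p-values therefore measure the spread between libraries, which may be technical.

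LPS is sensed by TLR4 together with CD14 and MD-2. On the cytoplasmic side TIRAP brings MyD88 to the receptor, MyD88 assembles IRAK4 with IRAK1 or IRAK2 into the Myddosome, and TRAF6 passes the signal to TAK1, the IKK complex and the MAP kinases. From endosomes the adaptor TRAM, encoded by Ticam2, brings in TRIF, encoded by Ticam1, which reaches TBK1 and IRF3 through TRAF3. IRAK3, also called IRAK-M, is known as a brake on Myddosome signaling in macrophages, and TRAF1 is a TRAF family member without a RING finger whose gene is a classical NF-κB target. Pol II over a gene reports polymerase engaged there, and H3K27ac marks active promoters and enhancers.

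Values are the authors' normalized tags, that is tags of a called region scaled to 10000000 tags per library, shared out by overlap over a window. The Pol II window runs from 500 bp before to 500 bp after the gene, and the H3K27ac window spans 2500 bp on each side of the gene start. A gene was called changed at an adjusted p under 0.05 in limma, after Benjamini-Hochberg adjustment over all genes tested, and changes are given as log2 of normalized tags plus 10, with standard error (SE). Libraries held 21.7 to 36.1 M tags for Pol II, 13.5 to 55.4 M for H3K27ac and 25.6 to 45.3 M for input, and among the H3K27ac libraries those of Nur77-KO cells were deeper (23.6 to 55.4 M against 13.5 to 31.1 M). Pol II over Nr4a1 itself stood at 189, 188 and 208 normalized tags in the WT libraries at 0 h and at 87.8, 76.1 and 70.2 in the Nur77-KO libraries, and the 2 groups did not overlap. At 1 h the values were 25.5, 23 and 30.4 in WT and 33.5, 39 and 36.6 in Nur77-KO libraries, where Nur77-KO was the higher, and at 18 h 7.46, 5.98 and 0 in WT and 0 in all Nur77-KO libraries. H3K27ac at the Nr4a1 start did not separate the genotypes. It stood at 85.5, 68.5 and 74.4 in WT and 84.4, 61.4 and 74.6 in Nur77-KO libraries at 0 h, and the groups overlapped at each time. Tags inside a region have no position, so the deleted part of Nr4a1 cannot be told from the rest. All 7 macrophage markers had Pol II in every group, summing to 19310.2 to 21984 normalized tags in WT libraries at 0 h. Markers of other cells were lower or at 0. The neutrophil genes Elane, Mpo, Ly6g and S100a9 were at 0 in every group, while 3 of the 7 neutrophil markers had some Pol II in WT cells at 0 h and the 7 summed to 26.1 to 31.9. Of the B cell genes Ebf1 and Pax5 were at 0, while Ms4a1 and Cd79a together held 100.5 to 152. Of the T cell genes Cd3e and Cd3g were at 0, while Cd3d and Lat together held 106 to 130.5. The fibroblast genes Col1a1 and Col1a2 were at 0, while Pdgfrb held 30.3 to 60.4. In bulk chromatin a smaller share of cells with an active gene and less signal per cell cannot be told apart.

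Some H3K27ac libraries of stimulated Nur77-KO cells stood apart from their group. Over genes with signal in all 18 libraries, the library labelled Nur77-KO 1 h replicate 1 had Pearson correlations of only 0.912 to 0.913 with replicates 2 and 3 of its group, but of 0.978 to 0.98 with the WT libraries at 1 h. Replicates 2 and 3 correlated with the WT 1 h libraries at only 0.904 to 0.905 and 0.905 to 0.906, and with the library labelled Nur77-KO 18 h replicate 1 at up to 0.905. That 18 h library correlated at 0.914 to 0.915 with its own group. For comparison, Nur77-KO and WT libraries at 0 h correlated at 0.981 to 0.985. Replicates 2 and 3 of the Nur77-KO cells at 18 h correlated with the WT libraries at 18 h at 0.979 to 0.983. At 1 h replicate 1 was therefore as close to WT as in these comparisons, and replicates 2 and 3 were not. Libraries of one group otherwise agreed at 0.985 or more, and the Pol II libraries showed no such split. The files do not settle whether the labels of these stimulated Nur77-KO H3K27ac libraries are right, so their values are those of the libraries so labelled. The H3K27ac results at 1 h in Nur77-KO cells are therefore also given without replicate 1 and from replicate 1 alone.

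The promoters of the 4 genes whose H3K27ac rose most at 1 h in WT cells, Irak3, Irak2, Traf1 and Myd88, are shown first, since the H3K27ac windows are centred at the gene starts and the Pol II windows include them. Sequences are from RefSeq on GRCm38.p6, the mm10 build of the files, from 250 bases before to 50 bases after the RefSeq start, 5′ to 3′ on the strand of the gene. The table matched 9 of the 10 genes by symbol, with 12 start sites. Capitals mark the only match found to any motif searched. The Traf1 promoter is at chr2:34961723-34962022 (minus strand), that of Irak3 at chr10:120202081-120202380 (minus strand), that of Irak2 at chr6:113638217-113638516 (plus strand) and that of Myd88 at chr9:119339969-119340268 (minus strand). The RefSeq starts of Traf1, Irak3 and Irak2 are the gene starts of the windows, but that of Myd88 lies 1393 bp inside the gene, so its printed promoter is not centred in its H3K27ac window.
Traf1: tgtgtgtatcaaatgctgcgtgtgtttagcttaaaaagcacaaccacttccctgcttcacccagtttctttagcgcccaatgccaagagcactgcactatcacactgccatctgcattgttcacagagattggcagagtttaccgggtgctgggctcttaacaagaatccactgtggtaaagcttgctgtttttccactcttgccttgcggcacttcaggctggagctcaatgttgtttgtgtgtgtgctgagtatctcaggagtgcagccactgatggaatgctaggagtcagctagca
Irak3: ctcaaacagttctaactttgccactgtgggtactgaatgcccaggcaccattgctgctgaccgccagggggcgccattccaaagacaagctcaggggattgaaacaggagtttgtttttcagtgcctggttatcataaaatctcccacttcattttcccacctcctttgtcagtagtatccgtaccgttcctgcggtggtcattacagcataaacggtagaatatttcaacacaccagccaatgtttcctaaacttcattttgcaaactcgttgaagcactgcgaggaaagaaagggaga
Irak2: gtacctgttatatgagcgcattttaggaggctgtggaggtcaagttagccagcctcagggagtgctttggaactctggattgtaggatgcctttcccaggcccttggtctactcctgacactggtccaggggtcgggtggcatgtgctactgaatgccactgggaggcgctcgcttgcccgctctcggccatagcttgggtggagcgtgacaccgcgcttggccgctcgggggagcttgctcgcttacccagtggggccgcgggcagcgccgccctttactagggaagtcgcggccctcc
Myd88: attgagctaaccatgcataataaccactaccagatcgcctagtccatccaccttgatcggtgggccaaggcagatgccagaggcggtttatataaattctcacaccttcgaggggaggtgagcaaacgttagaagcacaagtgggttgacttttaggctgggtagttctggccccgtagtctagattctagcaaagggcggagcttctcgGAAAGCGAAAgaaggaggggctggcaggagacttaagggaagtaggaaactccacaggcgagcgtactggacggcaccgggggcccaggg

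Both strands of the promoters were searched for the AP-1 motif TGANTCA, the Nur77 response element AAAGGTCA (NBRE), the NF-κB site in its 10-letter consensus form and the interferon response core, the last with 2 free letters in the middle. Among 32851 promoters of the same length 7.81% held the AP-1 motif, 1.51% the NBRE, 4.51% the NF-κB consensus and 3.44% the interferon response core. In the 12 promoters of these genes the search found 1 match, the interferon response core GAAAGCGAAA in the Myd88 promoter, 40 to 31 bases before the start. A match is a description of the letters, and the windows are short.

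At rest the 10 genes differed widely in Pol II. Per kb of window, Myd88 and Ticam1, the 2 signaling adaptors, carried the most in WT cells, with 53.1 ± 7.87 and 51.6 ± 6.11 normalized tags per kb (mean ± SD, n = 3), which overlap. Irak2 followed at 44.6 ± 4.1, and Ticam2 and Irak1 lay together at 23.7 ± 2.26 and 23.2 ± 2.31. Irak4 (15.6 ± 1.99), Tirap (12.7 ± 1.37) and Traf6 (7.09 ± 1.15) came next. Traf1 and Irak3 were nearly free of Pol II per kb, at 2.86 ± 0.447 and 2.67 ± 0.146, and their spreads overlapped. After 1 h of LPS the order had changed, with Traf1 first at 148 ± 1.65 and Irak2 second at 95.9 ± 0.868 normalized tags per kb.

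In WT cells 6 of the 10 genes gained Pol II within 1 h of LPS (Traf1, Irak3, Irak2, Traf6, Ticam2 and Ticam1), 3 lost it (Irak4, Irak1 and Tirap) and Myd88 did not pass the test. Of 13229 genes tested at 1 h, 18.6% were higher and 68.5% lower. The median gene moved by -0.82 on the log2 scale and the 10 genes by a median of 0.45. At 18 h 8 of the 10 were higher and Irak1 was lower, where 33.3% of all genes were higher and 33.3% lower, and the medians were 0.54 for the 10 genes and 0.00 for all. In Nur77-KO cells 7 were higher and 2 lower at 1 h, against 20.6% and 62.2% of all genes, and 6 were higher and 2 lower at 18 h, against 28.1% and 42.2%.

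**Figure D1:**
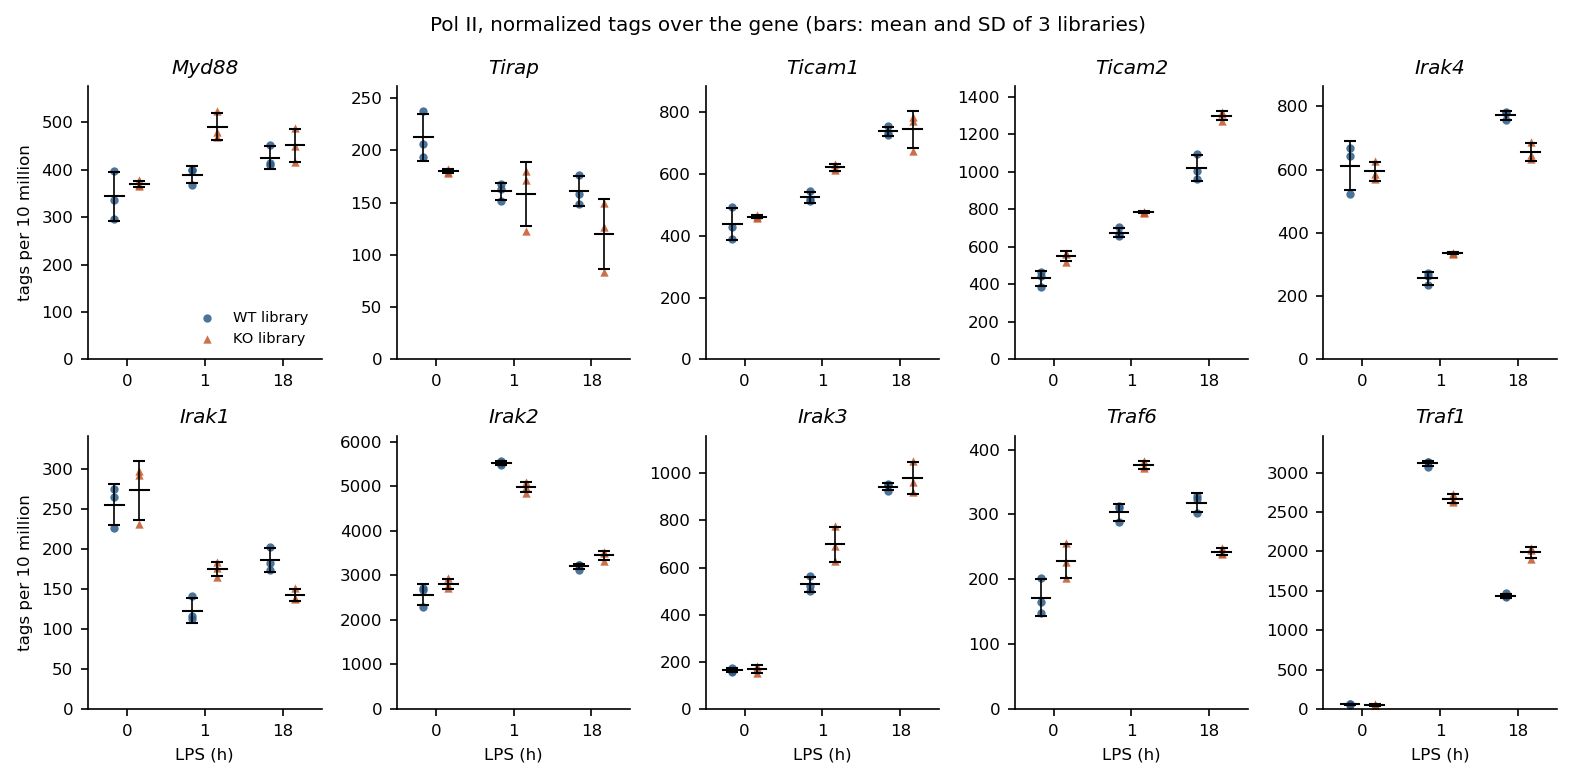
Pol II at the 10 genes in normalized tags over the gene window (vertical axis, linear, from 0) by hours of LPS (horizontal axis). Circles are WT and triangles Nur77-KO libraries and bars are the mean ± SD of 3; Traf1 and Irak3 climb from near the axis, Irak4 dips at 1 h and returns, and Irak1 falls.

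Traf1, the TRAF family member that binds TNF receptor complexes (ENSMUSG00000026875, chr2:34941750-34961772, minus strand), had the largest response. WT libraries held 50.7, 60.1 and 69.5 normalized tags at 0 h, 3139, 3077 and 3135 after 1 h and 1468, 1432 and 1421 after 18 h. The groups lay far apart. Traf1 reached a log2 change of 5.49 (SE 0.11, adjusted p = 1.04e-17) at 1 h and of 4.38 (SE 0.11, adjusted p = 4.67e-16) at 18 h. These are 44.9-fold and 20.8-fold in normalized tags plus 10, not in the tags themselves. The Nur77-KO libraries stood at 63.1, 40.8 and 57.4, then 2732, 2628 and 2652, then 2044, 2014 and 1903. At 1 h they were all below the WT libraries, a difference that did not pass the test (-0.22, adjusted p = 0.102), and at 18 h all above. Called Pol II regions covered 8.83%, 9.99% and 11.4% of the Traf1 window in the WT libraries at 0 h and 100% in every stimulated library of both genotypes. The input libraries held up to 116 normalized tags in this window, more than the ChIP libraries at rest, so the resting value is near background.

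Irak3, the brake on the Myddosome (ENSMUSG00000020227, chr10:120141648-120202130, minus strand), rose later. Its WT libraries held 156, 162 and 174 normalized tags at 0 h, 564, 501 and 522 after 1 h and 956, 926 and 949 after 18 h. No values of these 3 groups overlapped, and the log2 change was 1.63 (SE 0.09, adjusted p = 1.06e-11) at 1 h and 2.45 (SE 0.09, adjusted p = 7.06e-14) at 18 h. Nur77-KO libraries went from 175, 184 and 152 to 693, 777 and 629 and 1054, 919.98 and 964, higher than WT at 1 h in every library and overlapping it at 0 h. Pol II regions covered 10.4%, 11.3% and 10.1% of the Irak3 window at 0 h in WT cells, 44.8%, 31% and 37.5% after 1 h and 70.1%, 73.9% and 73% after 18 h. In Nur77-KO cells the covered share at 1 h was 56.8%, 70.4% and 53.4%, all above the WT libraries. The input reached 333 normalized tags in this window, above the resting ChIP values, and the main region over Irak3 also ran across the neighbour Tmbim4 after 1 h and across Tmbim4 and Llph after 18 h.

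Irak2, the kinase of the late Myddosome (ENSMUSG00000060477, chr6:113638467-113695026, plus strand), had the largest totals. WT libraries held 2295, 2723 and 2681 normalized tags at 0 h, 5470.3, 5520.4 and 5570.2 after 1 h and 3241, 3127 and 3228 after 18 h. The 1 h group stood clear of both others, and the log2 changes were 1.11 (SE 0.06, adjusted p = 6.03e-12) at 1 h and 0.32 (SE 0.06, adjusted p = 9.6e-05) at 18 h. Nur77-KO libraries went from 2772, 2715 and 2932 to 4985, 4855 and 5098 and 3496, 3514 and 3327, and at 1 h all lay below the WT libraries. In every library Irak2 sat in 1 called region of 97.4 to 104 kb that also covered Tatdn2, Ghrl and Sec13, with 55.1 to 59.0% of the region inside the Irak2 window. Its Pol II value therefore cannot be separated from that of these neighbours.

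Irak4, the kinase that starts the Myddosome cascade (ENSMUSG00000059883, chr15:94543643-94581815, plus strand), dipped and returned. Its WT libraries held 523, 644 and 669 normalized tags at 0 h, 263, 234 and 272 after 1 h and 778, 782 and 756 after 18 h. The 3 groups did not overlap, with log2 changes of -1.22 (SE 0.08, adjusted p = 3.55e-10) at 1 h and 0.34 (SE 0.08, adjusted p = 0.002) at 18 h. In Nur77-KO cells the values were 570.3, 628 and 585, then 333, 337 and 336, then 688, 634 and 645. The fall at 1 h was smaller there (-0.81), and relative to the median gene it was -0.40 in WT and -0.18 in Nur77-KO cells. At 18 h Irak4 did not pass the test (0.14 (SE 0.08, adjusted p = 0.152)). Pol II regions covered 44.1%, 51.5% and 51.4% of the window in WT cells at 0 h, 23.4%, 21.5% and 21.3% after 1 h and 55.4%, 59.1% and 53.6% after 18 h. Regions over Irak4 also reached Pus7l at the start or Twf1 at the end of the gene. Irak4 lies on the chromosome of the deleted Nr4a1 gene, 6.71 Mb away.

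Irak1, the partner kinase of IRAK4 (ENSMUSG00000031392, chrX:74013914-74023918, minus strand), fell at both times. WT libraries held 275, 264 and 227 normalized tags at 0 h, 112, 141 and 116 after 1 h and 203, 174 and 182 after 18 h. Stimulated and resting values did not overlap, and the log2 change was -1.0 (SE 0.11, adjusted p = 2.55e-07) at 1 h and -0.43 (SE 0.11, adjusted p = 0.00282) at 18 h. In the Nur77-KO libraries the values were 297, 292 and 231, then 176, 183 and 165, then 151, 138 and 138. At 1 h these were all above WT and at 18 h all below. Relative to the median gene, which fell at 1 h, the 1 h change of Irak1 was -0.18 in WT and 0.01 in Nur77-KO cells. With each library centred on its median the 1 h call was lost in both (-0.20, adjusted p = 0.164, and -0.04, adjusted p = 0.814). In the window of 500 bp on each side of the start the change at 1 h was not a fall, at 0.18 in WT and 0.27 in Nur77-KO cells. That value also depends on the length of the called region, over which tags are shared evenly. Pol II regions covered 91.8%, 100.00% and 84.5% of the window at 0 h in WT cells, 50.8%, 46.1% and 55.9% at 1 h and 92.7%, 87.4% and 93.3% at 18 h, so coverage was back in the resting range at 18 h while the totals were not. No input library had a region in the Irak1 window.

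Myd88, the adaptor of most TLRs (ENSMUSG00000032508, chr9:119335934-119341411, minus strand), changed little. Its WT libraries held 336, 297 and 398 normalized tags at 0 h, 368, 399 and 399.8 after 1 h and 409.8, 415 and 453 after 18 h. The 0 h and 1 h groups overlapped and the 18 h group stood above both, with a log2 change at 18 h of 0.31 (SE 0.09, adjusted p = 0.00756). Against the fall of the median gene at 1 h, the Myd88 value of 0.18 (adjusted p = 0.076) lay 1.01 above the median. Nur77-KO libraries went from 378, 365 and 368 to 469, 525 and 481 and 451, 487 and 417, and the rise at 1 h passed the test there (0.40 (SE 0.09, adjusted p = 0.000845)). Regions over Myd88 also covered Slc22a14 and Acaa1a, and 47.7 to 81.6% of each lay inside the Myd88 window.

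Tirap, the sorting adaptor that brings MyD88 to TLR4 (ENSMUSG00000032041, chr9:35184551-35200291, minus strand), fell slightly. WT libraries held 194, 238 and 206 normalized tags at 0 h, 164, 168 and 152 after 1 h and 177, 149 and 158 after 18 h. All stimulated values lay below the resting ones, but the log2 change passed the test only at 1 h (-0.38 (SE 0.16, adjusted p = 0.0394); 18 h -0.38 (SE 0.16, adjusted p = 0.0508)). Relative to the median gene the 1 h value was 0.45 higher, and centring each library on its median turned its sign. Nur77-KO libraries held 182, 179.7 and 178, then 171, 180.00 and 123, then 127, 149.7 and 83.7. There the 18 h change was -0.58 (SE 0.16, adjusted p = 0.00422). The Tirap window also includes 617 bp of the neighbour Srpr, and the main region reached Srpr in every stimulated library of both genotypes.

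The adaptors of the endosomal arm both rose steadily. Ticam1, encoding TRIF (ENSMUSG00000047123, chr17:56269319-56276786, minus strand), held 427, 391 and 493 normalized tags in WT libraries at 0 h, 546, 512 and 518 after 1 h and 732, 728 and 756 after 18 h. The 3 groups did not overlap, and the log2 change was 0.27 (SE 0.08, adjusted p = 0.00447) at 1 h and 0.75 (SE 0.08, adjusted p = 1.74e-07) at 18 h. Nur77-KO libraries held 467, 459 and 458, then 634, 619 and 613, then 773, 785 and 675. The Ticam1 region also covered Fem1a and Plin3, with 25.3 to 44.7% of it inside the Ticam1 window.

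Ticam2, encoding TRAM (ENSMUSG00000056130, chr18:46557291-46574533, minus strand), rose more. Its WT libraries held 385, 463 and 446 normalized tags at 0 h, 656, 669 and 703 after 1 h and 1003, 960.1 and 1095 after 18 h. These groups stood apart, with a log2 change of 0.64 (SE 0.07, adjusted p = 2.17e-07) at 1 h and of 1.22 (SE 0.07, adjusted p = 7.27e-11) at 18 h. Nur77-KO libraries were above WT at each time, at 568, 518 and 563, then 786, 778 and 787, then 1309.96, 1272 and 1319.7. The window of Ticam2 includes 14799 bp of the annotated gene Tmed7 on the same strand, so the value belongs to both.

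Traf6, the ubiquitin ligase that links the Myddosome to TAK1 (ENSMUSG00000027164, chr2:101678429-101701669, plus strand), followed 2 courses. WT libraries held 148, 203 and 165 normalized tags at 0 h, 309, 288 and 312 after 1 h and 323, 329 and 302 after 18 h. Both stimulated groups were clear of the resting one, with log2 changes of 0.80 (SE 0.10, adjusted p = 9.98e-07) and 0.86 (SE 0.10, adjusted p = 7.33e-07). Nur77-KO libraries rose from 227, 203 and 256 to 375, 383 and 372 at 1 h and were back at 239, 240.04 and 248 at 18 h, where the change was 0.09 (SE 0.10, adjusted p = 0.439). Pol II regions covered 74.4%, 70.6% and 62.9% of the window in WT cells at 18 h and 51.7%, 55.4% and 56.7% in Nur77-KO cells. In the window of 500 bp on each side of the start the Traf6 value fell in WT cells, by -0.63 at 1 h and -0.54 at 18 h. Tags are shared evenly along a called region, so a wider region alone lowers this value. The main region was 1.20 to 2.62 kb long in WT libraries at 0 h and 5.31 to 7.37 kb at 18 h. Less Pol II at the start cannot be told from a wider region. No other gene shared a region with Traf6 or Traf1.

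**Figure D2:**
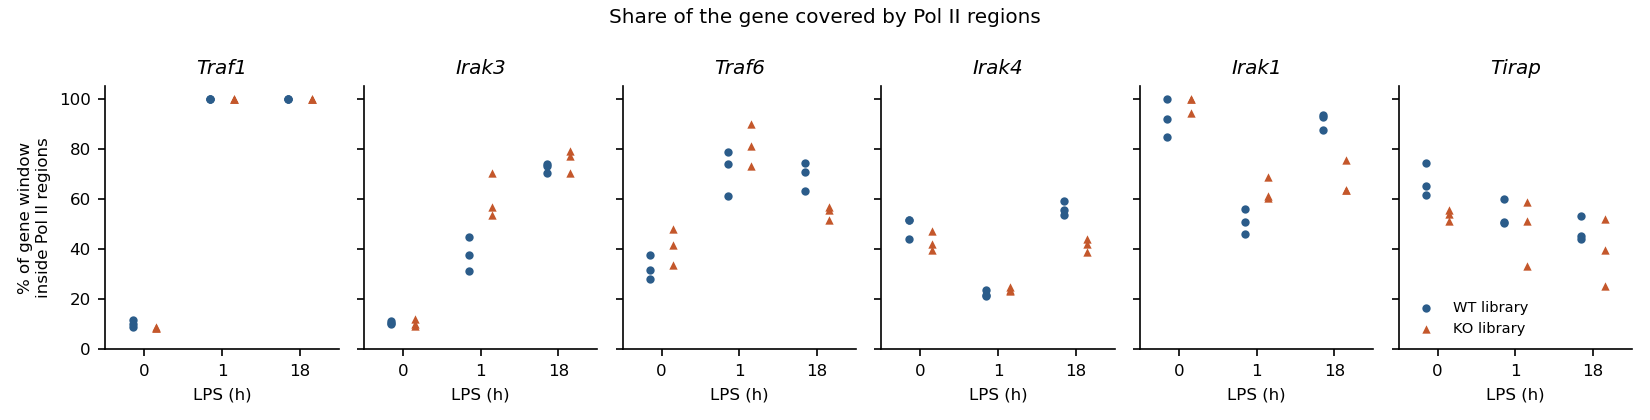
Share of the gene window covered by called Pol II regions, in percent, by hours of LPS for 6 genes. Circles are single WT and triangles single Nur77-KO libraries; Traf1 goes from under 12% to 100%, Irak3 fills in stepwise, and Irak1 and Irak4 lose coverage at 1 h.

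H3K27ac at the gene starts of WT cells rose for 7 of the 10 genes at 1 h (Irak3, Irak2, Traf1, Myd88, Ticam1, Traf6 and Tirap) and fell for Irak4. Of all genes tested 25.3% were higher and 29.4% lower. At 18 h 6 were higher and none lower (Irak3, Myd88, Traf1, Irak2, Ticam2 and Ticam1), against 23.6% and 26.5% of all genes. The median log2 change of the 10 genes was 0.82 at 1 h and 0.76 at 18 h, with -0.05 and -0.03 over all genes. In Nur77-KO cells 8 were higher and none lower at 1 h, against 20.4% and 26.6% of all genes, and 7 were higher and Irak1 was lower at 18 h, against 18.4% and 34.2%. Without replicate 1 at 1 h the Nur77-KO count was 7 higher and none lower, as Traf6 did not pass (0.53, adjusted p = 0.061). From replicate 1 alone at 1 h, the Nur77-KO count was 5 higher and 1 lower, the latter Irak4. Without replicate 1 of the Nur77-KO cells at 18 h, which stood apart, the same 7 were higher at 18 h and Irak1 and Tirap lower. Traf6 rests on that library for most of its size, with 314, 163 and 133 normalized tags at 18 h against 122, 117 and 125 at 0 h, and its log2 change went from 0.61 (adjusted p = 0.0173) to 0.26 (adjusted p = 0.0349) without it.

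The largest gain at a start was that of Irak3, whose WT libraries held 162, 149 and 151 normalized tags of H3K27ac at 0 h, 509, 521 and 514 after 1 h and 433, 439.8 and 286 after 18 h. The log2 change was 1.68 (SE 0.12, adjusted p = 1.87e-08) at 1 h and 1.25 (SE 0.12, adjusted p = 4.01e-07) at 18 h, where 1 library lay well below the other 2. Irak2 went from 200.2, 254 and 206 to 626, 676 and 492 and 437, 409.9 and 431, a log2 change of 1.40 and then 0.93. Both genes had stimulated groups clear of the resting one.

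Traf1 started from a marked promoter. Its WT libraries held 313, 293 and 310.2 normalized tags of H3K27ac at 0 h, 893, 753 and 768 after 1 h and 657, 572 and 555 after 18 h, with no overlap between groups. The log2 change in H3K27ac was 1.37 (SE 0.15, adjusted p = 2.04e-06) at 1 h, on a scale where that of Pol II was 5.49. Myd88 went from 343, 522 and 574 to 1099, 1105 and 1067 and 1034, 894 and 1037 in WT cells, a log2 change of 1.20 (SE 0.14, adjusted p = 4.24e-06) at 1 h, while its Pol II did not pass the test at that time. The Myd88 window also holds the start of Acaa1a.

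The adaptors of the endosomal arm differed in H3K27ac. Ticam1 held 256, 220.5 and 232 normalized tags in WT libraries at 0 h, 449, 415 and 421 after 1 h and 447, 395 and 373 after 18 h, with log2 changes of 0.83 and 0.75. Ticam2 held 396, 464 and 526, then 424, 474 and 441, then 854, 781 and 743. Its 1 h values lay inside the resting range and it rose only at 18 h (0.77 (SE 0.13, adjusted p = 0.000162)), although its Pol II had risen at 1 h.

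Irak4 fell in both marks at 1 h. WT libraries held 308, 312 and 331 normalized tags of H3K27ac at 0 h, 179.9, 192 and 206 after 1 h and 361, 366 and 369 after 18 h. The 1 h group was below both others, with a log2 change of -0.69 (SE 0.13, adjusted p = 0.000236). Irak1, in contrast, had H3K27ac values of 209, 201 and 236 and 181, 211 and 244 at 0 h and 1 h, groups that overlapped, while its Pol II fell. Tirap rose at 1 h only, from 148, 147 and 144 to 196, 218 and 199 (log2 change 0.46 (SE 0.12, adjusted p = 0.00537)), and Traf6 went from 115, 102 and 99.6 to 199, 182 and 196 (log2 change 0.81 (SE 0.20, adjusted p = 0.00276)). The starts of Srpr, Tmbim4 and Pus7l lie in the windows of Tirap, Irak3 and Irak4.

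**Figure D3:**
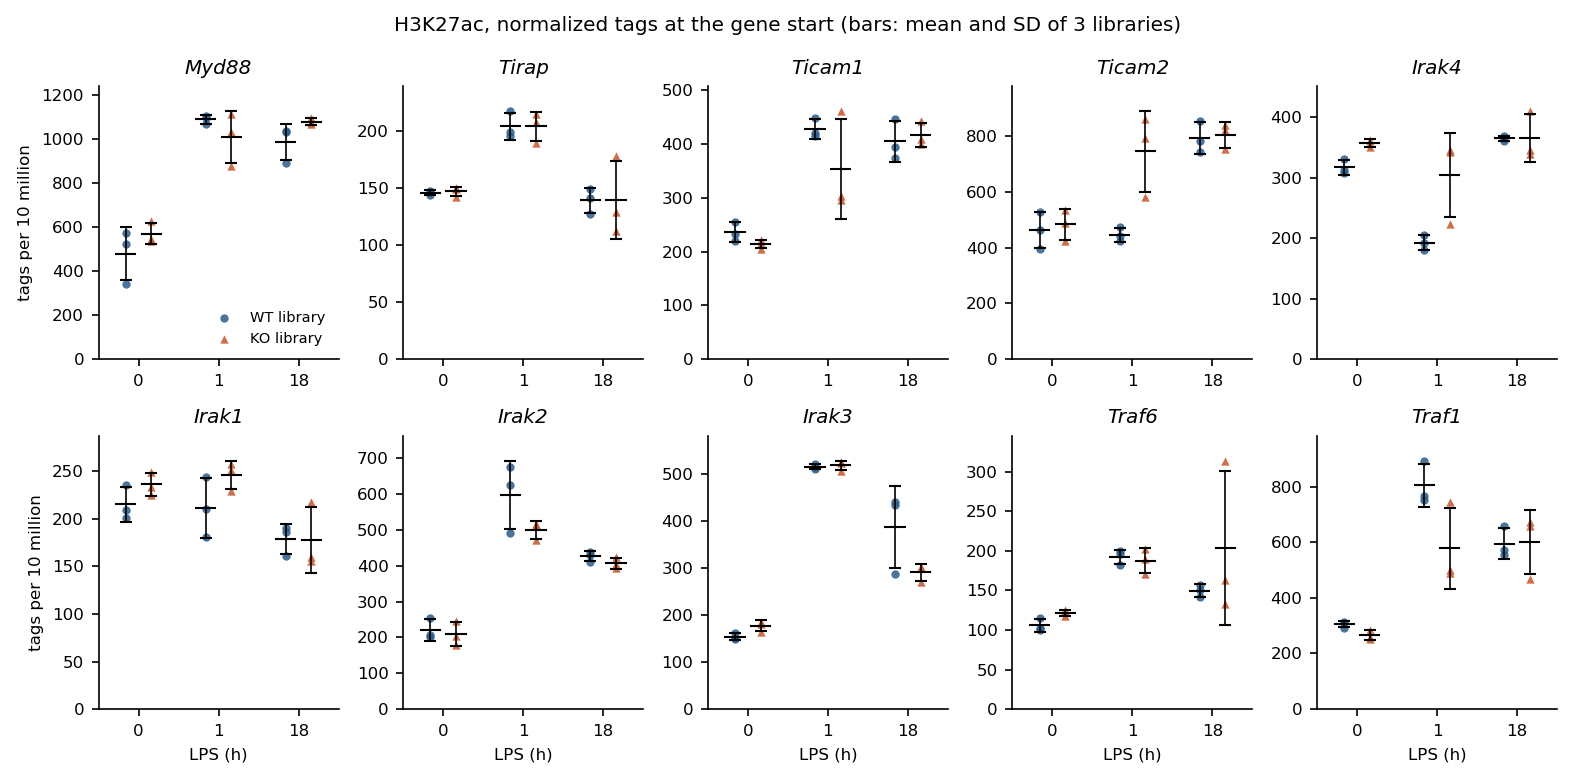
H3K27ac in normalized tags within 2500 bp of each gene start (vertical axis) by hours of LPS (horizontal axis). Circles are WT and triangles Nur77-KO libraries and bars are the mean ± SD of 3. In Nur77-KO cells at 1 h, replicate 1 lies nearer to the WT libraries than replicates 2 and 3 at Irak4, Ticam2, Traf1 and Ticam1.

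As whole called regions, 49 H3K27ac regions merged over the 18 libraries lay in or within 10 kb of these genes, 10 of them over the gene starts, and 37 could be tested in each WT comparison. A region was called at an adjusted p under 0.05 with a log2 change over 1. In WT cells 10 were higher and 7 lower at 1 h, against 14.9% and 25.9% of all regions tested, and 8 were higher and 4 lower at 18 h, against 13.5% and 25.5%. Gains stood at Traf1, Irak3, Irak2, Ticam2, Tirap and Traf6, and losses at sites of Myd88, Tirap, Irak1, Irak3, Traf6 and Ticam2. None of the lost sites covered a gene start. Of these calls 4 of the gains and 1 of the losses at 1 h, and 2 of the gains at 18 h, had a group at 0 in all libraries, where the filter lets a region in through the other group alone.

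Traf1 was spanned by a region of 23.7 kb over its start (chr2:34948947-34972635). It held 506, 484 and 497 normalized tags in WT libraries at 0 h, 2905, 3026 and 2938 after 1 h and 1634, 1699 and 1721 after 18 h, a log2 change of 2.55 (SE 0.13, adjusted p = 5.21e-10) at 1 h. The next region, inside the gene (chr2:34943040-34947333) went from 29.3, 27.9 and 39.5 to 104, 137 and 110.2. Another, past the gene end (chr2:34938157-34940070), was not found in any resting library of either genotype. It held 24.4, 36.7 and 41.2 in the WT libraries at 1 h and 19.1, 24.6 and 23.8 in the Nur77-KO libraries, and 1 of the WT libraries lacked it at 18 h. All 3 regions gained at 1 h, and the smallest appeared only after LPS.

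Irak3 changed site by site along the gene. The region over its start (chr10:120195209-120203459) held 184, 168 and 164 normalized tags in WT libraries at 0 h, 504, 551 and 514 after 1 h and 479, 498 and 505 after 18 h, and the one inside the first part of the gene (chr10:120187864-120194249) 96.2, 98.7 and 96.6, then 229.5, 267 and 278, then 526, 501 and 487. The inner region went on rising to 18 h, with a log2 change of 2.26 (SE 0.10, adjusted p = 5.66e-11). In the same gene the region at its end (chr10:120138657-120142930) fell from 425, 429.7 and 421 to 169.6, 198 and 154 and 138, 134 and 134, a log2 change of -1.25 (SE 0.15, adjusted p = 3.8e-06) at 1 h. Gain and loss thus stood side by side in 1 gene.

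Windows of these sites with motif matches are shown, since they appeared or grew with LPS where the promoters held no match. They come from the plus strand of the reference genome, 5′ to 3′, and capitals mark the match. The Traf1 windows come from the region that appeared after LPS and lie outside exons at chr2:34938752-34938821 and chr2:34938802-34938871, each with an NF-κB consensus match. The Irak3 windows come from the inner region of the gene, at chr10:120188572-120188641 with an NF-κB match and at chr10:120188745-120188811 with an AP-1 match.
Traf1 site, first: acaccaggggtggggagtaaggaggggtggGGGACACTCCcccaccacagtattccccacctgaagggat
Traf1 site, second: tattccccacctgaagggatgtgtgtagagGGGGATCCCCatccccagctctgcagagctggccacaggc
Irak3 site, first: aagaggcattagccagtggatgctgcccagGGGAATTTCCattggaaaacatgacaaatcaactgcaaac
Irak3 site, second: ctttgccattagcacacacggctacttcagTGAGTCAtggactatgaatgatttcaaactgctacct

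The Traf1 region held 3 NF-κB matches, 2 of them overlapping by all but 1 base, and 17.4% of regions of like length, within 20%, held at least 1. The Irak3 region held 1 NF-κB and 2 AP-1 matches, where 47.2% and 88.8% of regions of like length held 1. Neither held an NBRE. Tirap had a comparable site (chr9:35186915-35188657), found at 1 h in all 6 libraries with 19.6, 21.7 and 25.1 normalized tags in WT and 29, 22.1 and 24.4 in Nur77-KO cells, and at 0 in all libraries at 0 h. It also held 3 NF-κB matches, against 15.6% of regions of like length with at least 1. The other 2 sites that were at 0 at rest and gained at 1 h in WT cells held no NF-κB match. The one near Traf6 (chr2:101707445-101709484), with 27.8, 11.1 and 7.18 normalized tags in WT libraries at 1 h and 0 at 18 h, held 1 AP-1 and 1 NBRE match, against 53.2% and 9.92% of regions of like length with 1. The one upstream of Ticam2, with 0, 24.2 and 13.7 at 1 h, held none of the 3 motifs.

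Other sites were lost. A region 11590 bp from the Myd88 start (chr9:119327531-119329821) held 52.3, 40.8 and 42.3 normalized tags in WT libraries at 0 h and 0 in all 3 at 1 h. The Nur77-KO libraries held 47.7, 53 and 58.2 at 0 h and 0, 17.2 and 23.2 at 1 h, so replicates 2 and 3 still had it and replicate 1 did not. A region at the end of Tirap (chr9:35181917-35184584) went from 91.6, 91.6 and 78.1 to 23.7, 37.8 and 29 and 15.3, 15.1 and 21.5 in WT cells, a log2 change of -1.84 (SE 0.25, adjusted p = 1.17e-05) at 18 h. A region inside Traf6 (chr2:101698012-101700562) went from 115, 125 and 94.7 to 40, 42.4 and 40.2 and 26.9, 31 and 35.2. At both genes the loss was deeper at 18 h than at 1 h in mean value.

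Irak2 had the widest region, 45.8 kb over its start (chr6:113637719-113683549), with 3315, 3338 and 3272 normalized tags in WT libraries at 0 h and 7306, 7611 and 7694 at 1 h, a log2 change of 1.19 (SE 0.05, adjusted p = 1.92e-10). The region upstream of Ticam2 that was at 0 at rest held 29.3, 15.4 and 23 at 18 h in WT and 50.2, 38.8 and 31.1 in Nur77-KO cells. Near Irak1 a region 19212 bp from the start fell from 34, 36.1 and 44 to 9.63, 15 and 17.2 in WT cells at 1 h and stood at 74.5, 79.8 and 92.8 at 18 h, above its resting level in every library. The Irak1 start itself did not pass the test in WT cells at either time.

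**Figure D4:**
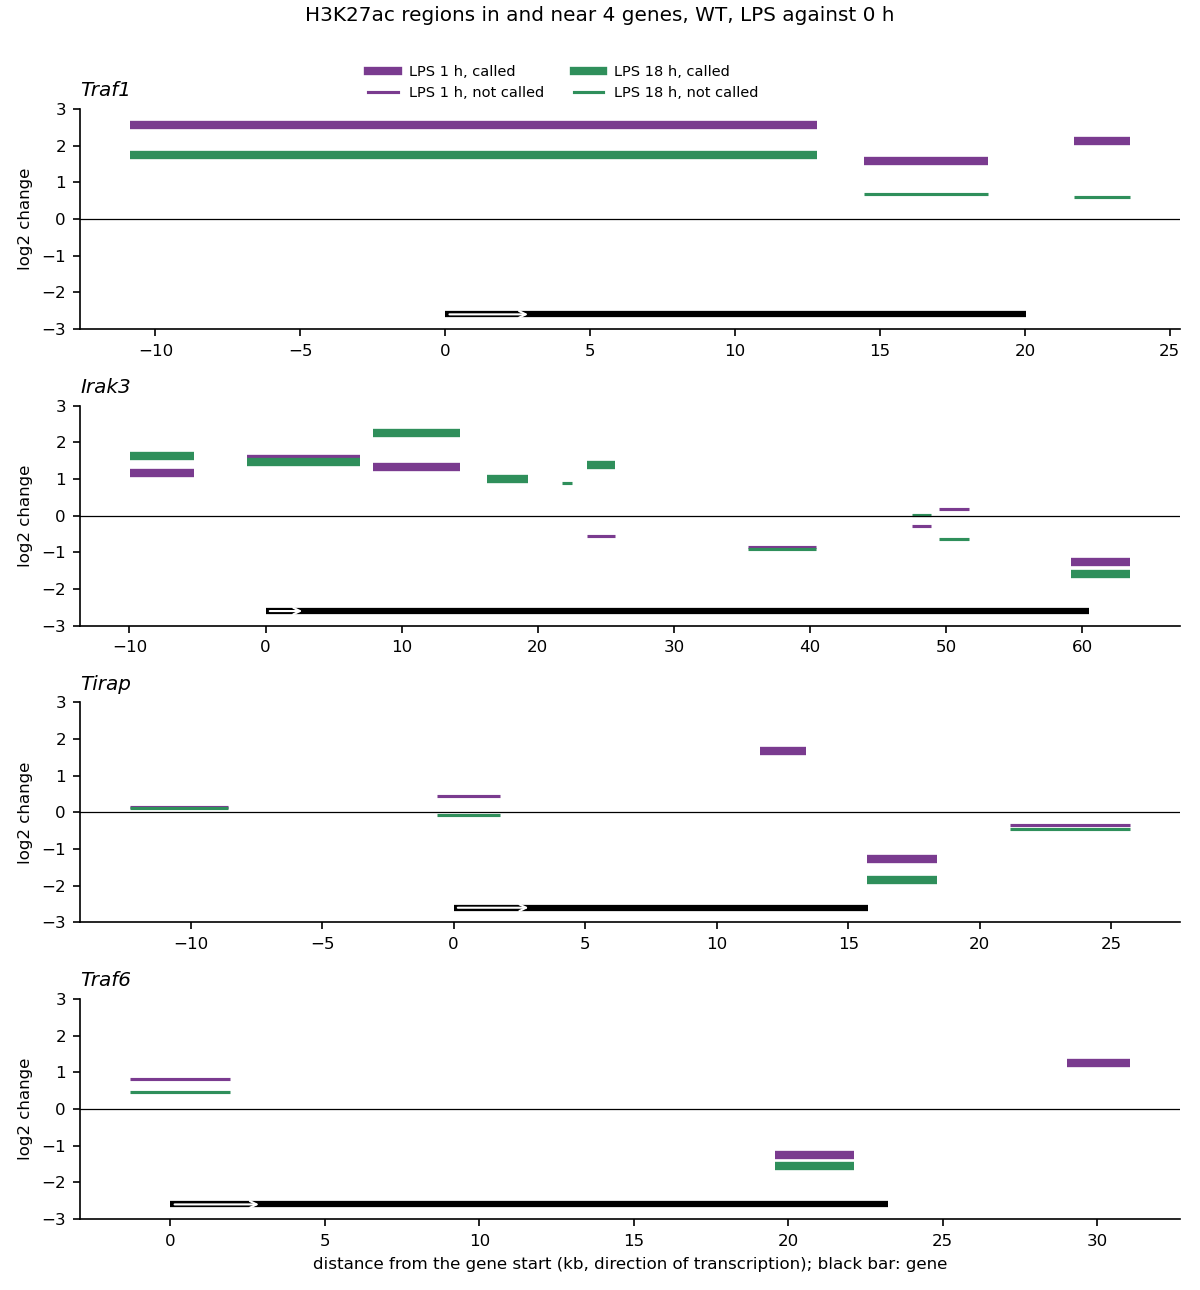
H3K27ac regions in or within 10 kb of Traf1, Irak3, Tirap and Traf6, drawn to scale as bars by distance from the gene start in kb (horizontal axis) and log2 change after 1 h or 18 h of LPS in WT cells (vertical axis). Thick bars passed the test and the black bar is the gene; the called losses lie at the ends of Irak3, Tirap and Traf6, away from the starts.

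Nur77-KO and WT cells were then compared at each time, in Pol II first. These comparisons share libraries with those of LPS. At rest Traf6 and Ticam2 were higher in Nur77-KO cells and none was lower, where 4.24% of all genes were higher and 2.73% lower. The Nur77-KO libraries of Ticam2 all lay above the WT libraries (log2 difference 0.35 (SE 0.07, adjusted p = 0.00573)). Those of Traf6 lay above as well, but the lowest Nur77-KO and the highest WT library both round to 203 normalized tags (0.40 (SE 0.10, adjusted p = 0.0227)). Within 500 bp of the start neither passed (0.06 (adjusted p = 0.779) for Ticam2 and 0.40 (adjusted p = 0.383) for Traf6), and past the start only Ticam2 did. Leaving out a replicate, both kept the call without replicate 2 and neither without replicate 1 or 3. Among the markers S100a8, Epor (0.76, adjusted p = 0.0281) and the macrophage gene Mertk (0.47, adjusted p = 4.33e-05) were also higher in Nur77-KO cells at 0 h, and their part was not tested.

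At 1 h 7 of the 10 genes were higher in Nur77-KO cells (Irak1, Irak3, Irak4, Myd88, Traf6, Ticam1 and Ticam2) and Irak2 was lower. This followed a shift of all genes, of which 38.3% were higher and 7.47% lower, with a median difference of 0.24, and of 0.27 for the 10 genes. Irak1 differed by 0.48 (SE 0.11, adjusted p = 0.00276), Irak3 by 0.39 (SE 0.09, adjusted p = 0.00192) and Irak4 by 0.38 (SE 0.08, adjusted p = 0.00189), which is 0.24, 0.15 and 0.14 above the median gene. Irak2 differed by -0.15 (SE 0.06, adjusted p = 0.0436), or -0.39 relative to the median. With each library centred on its median none of the 10 was higher, and Irak2 and Traf1 were lower. Irak1 alone kept its call without any one replicate, and Irak4, Myd88 and Ticam1 were those that passed within 500 bp of the start. The 7 macrophage markers summed to 26450.3 to 27209 normalized tags of Pol II in WT libraries and 16731 to 17376 in Nur77-KO libraries at 1 h. Of the 7, Fcgr1, Adgre1, Mertk and Itgam were lower, Csf1r was higher and 2 did not pass. Adgre1 alone held 21921 to 22676 in WT and 13008 to 13349 in Nur77-KO libraries, and in WT cells 5 of the 7 fell at 1 h while Adgre1 rose. Markers of other cells moved as well. S100a8, a neutrophil gene, held 11.6, 17 and 8.62 in Nur77-KO libraries at 1 h and 0 in all WT libraries, and 43, 39.3 and 45.3 against 15.4, 16.6 and 15.9 at 0 h. Cd3d and Ms4a1 were also called higher at 1 h (0.41 (adjusted p = 0.00815) and 0.65 (adjusted p = 0.0232)). The part of these markers in the difference was not tested.

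At 18 h Traf1 and Ticam2 were higher and Traf6 and Irak1 lower in Nur77-KO cells, against 7.59% of all genes higher and 13.5% lower. Traf1 differed by 0.46 (SE 0.11, adjusted p = 0.00546) and Ticam2 by 0.35 (SE 0.07, adjusted p = 0.00197). Traf6 differed by -0.38 (SE 0.10, adjusted p = 0.0129) and Irak1 by -0.36 (SE 0.11, adjusted p = 0.0298), and the median gene by -0.10. In all 4 genes the 3 libraries of one genotype lay clear of those of the other. Within 500 bp of the start the difference of Traf6 had the opposite sign (0.29, adjusted p = 0.573), that of Irak1 was -0.01 (adjusted p = 0.98) and only Ticam2 passed. Ticam2 also kept its call without any one replicate, Traf1 lost it without replicate 3, and Irak1 and Traf6 lost it without each. The macrophage markers summed to 41210.2 to 41839.9 in WT and 34941 to 36238 in Nur77-KO libraries at 18 h, against 19310.2 to 21984 and 21839 to 22436 at 0 h. Of the 7, Itgam, Lyz2, Csf1r, Fcgr1 and Adgre1 were lower in Nur77-KO cells at 18 h and Mertk was higher. The sum is mostly Adgre1, with 26688 to 26869 in WT libraries at 18 h, and from 0 h to 18 h in WT cells 3 of the 7 rose (Adgre1, Mertk and Fcgr1) and 4 fell. Of the markers of other cells Ms4a1 (-0.65, adjusted p = 0.0441), Cd3d (-0.34, adjusted p = 0.0456) and the erythroid gene Epor (-0.67, adjusted p = 0.0247) were lower in Nur77-KO cells at 18 h. The part of these markers was not tested.

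**Figure D5:**
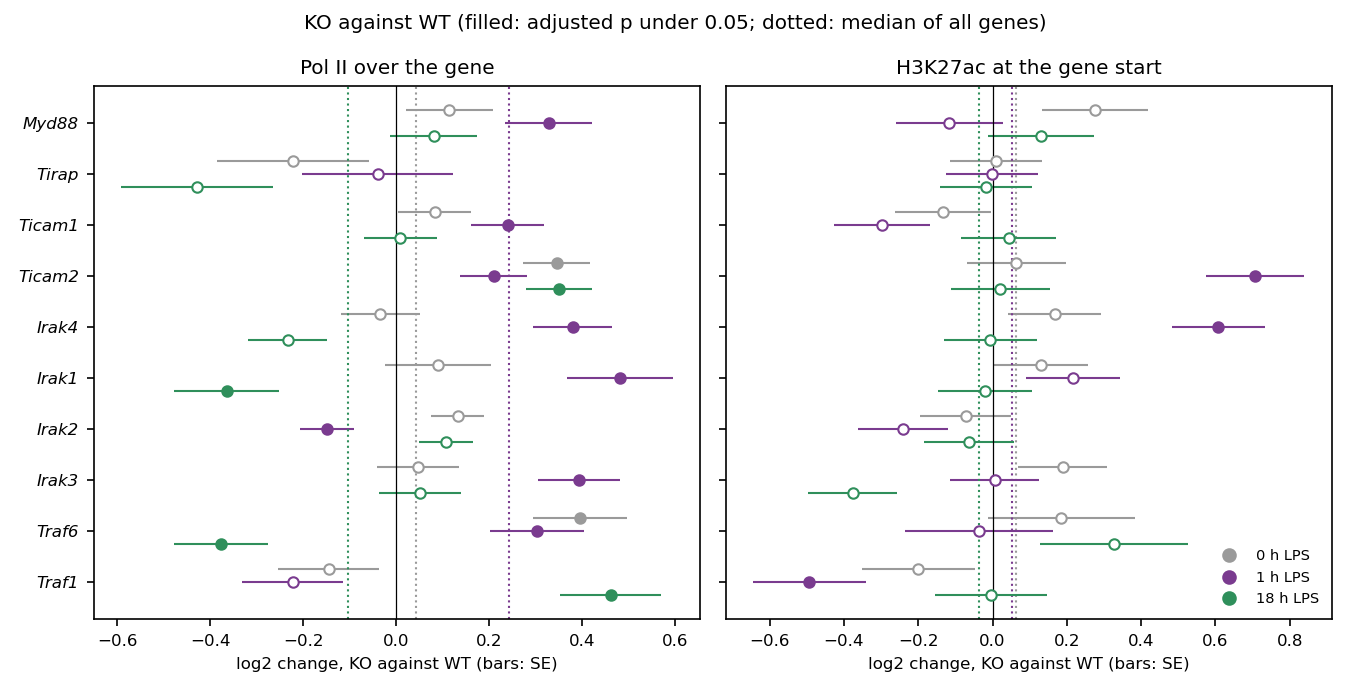
Log2 difference of Nur77-KO against WT cells at 0 h, 1 h and 18 h of LPS for each gene, in Pol II and in H3K27ac. Points are the fitted differences, bars are ± 1 SE, filled points passed the test and dotted lines mark the median of all genes; at 1 h most Pol II points lie above 0, near the shifted median.

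Whether the response to LPS itself differed was tested as the change in Nur77-KO minus the change in WT cells. At 1 h 2 of the 10 genes passed in Pol II, where 18.5% of all genes did. The fall of Irak4 was smaller in Nur77-KO cells by 0.41 (SE 0.12, adjusted p = 0.0243), and the rise of Irak2 was smaller there, with a difference of -0.28 (SE 0.08, adjusted p = 0.024), where the median gene differed by 0.17. At 18 h 2 passed, where 14.8% of all genes did. The rise of Traf1 was larger in Nur77-KO cells by 0.61 (SE 0.15, adjusted p = 0.0129) and that of Traf6 was smaller, with a difference of -0.77 (SE 0.14, adjusted p = 0.00137). The Irak4 call was lost with centring (0.19, adjusted p = 0.159), and the Traf6 value fell to -0.32 (adjusted p = 0.172) with the input subtracted. Within 500 bp of the start none of the 4 calls held. The values there were 0.27 (adjusted p = 0.364) for Irak4, -0.23 (adjusted p = 0.294) for Irak2, 0.39 (adjusted p = 0.303) for Traf1 and -0.11 (adjusted p = 0.899) for Traf6. Irak2 lay in 1 called region in every library, and Traf1 in 1 in every stimulated library. Tags are shared evenly along a region, so the start values of Irak2, and of Traf1 after LPS, are no separate measure of the start. Irak4 kept its call without replicate 1, Irak2 in no fit that left out a replicate, Traf1 without replicate 1 and Traf6 without replicate 2 or 3.

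In H3K27ac no gene start passed between the genotypes at 0 h or 18 h by limma, where 0.771% and 3.25% of all genes did, and 0 and 1 of the 10 had an unadjusted p under 0.05. At 1 h Ticam2 and Irak4 were higher and Traf1 lower, against 11.1% and 7.42% of all genes. These rest on the libraries described above. The 7 neutrophil markers summed to 59.6 to 70.4 normalized tags of H3K27ac in WT and 105.4 to 124 in Nur77-KO libraries at 1 h, and to 72.4 to 86.4 and 162 to 179 at 0 h. The 4 T cell markers summed to 26.7 to 34.1 in WT and 52.5 to 100.8 in Nur77-KO libraries at 1 h, all of it Lat, and Ms4a1 held 109, 106 and 116 against 114, 207 and 272. The part of these markers in the difference was not tested. Irak4 held 224, 343 and 346 normalized tags in the Nur77-KO libraries and 179.9, 192 and 206 in the WT libraries, Ticam2 581, 859 and 793 and 424, 474 and 441, and Traf1 745, 488 and 501 and 893, 753 and 768. In each, replicate 1 of the Nur77-KO group lay nearer to WT than replicates 2 and 3. The difference was 0.61 (SE 0.13, adjusted p = 0.00633) for Irak4, 0.71 (SE 0.13, adjusted p = 0.00372) for Ticam2 and -0.49 (SE 0.15, adjusted p = 0.0357) for Traf1.

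Without replicate 1 the H3K27ac differences at 1 h grew to 0.81 (adjusted p = 2.47e-06) for Irak4, 0.87 (adjusted p = 3.06e-05) for Ticam2 and -0.69 (adjusted p = 0.00066) for Traf1, and Ticam1 was lower as well, at -0.50 (adjusted p = 0.000224). From replicate 1 alone none of the 10 genes passed, with 0.21 (adjusted p = 0.518) for Irak4, 0.37 (adjusted p = 0.338) for Ticam2 and -0.10 (adjusted p = 0.911) for Traf1, a fit in which the lone library is taken to vary like the other groups. The fall of Irak4 at 1 h in Nur77-KO cells was -0.25 in all 3 libraries (adjusted p = 0.112), -0.05 (adjusted p = 0.615) without replicate 1 and -0.65 (adjusted p = 0.000202) in replicate 1 alone. None of the 10 starts passed the test of the response in H3K27ac at 1 h or 18 h by limma, where 0.568% and 0.630% of all genes did, and 2 and 1 of the 10 had an unadjusted p under 0.05. Without replicate 1, 4 of the 10 passed at 1 h. The share of all genes passing in that fit was not taken, so this count has no background to be read against.

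Of the H3K27ac regions around the genes none was called between the genotypes at 0 h or 18 h by limma, also at an unadjusted p under 0.05, and 2 were at 1 h, against 1.85%, 3.74% and 14.1% of all regions. These were the Myd88 region lost after LPS, for which no test is given because all WT libraries were at 0 and the filter let it in through the deeper Nur77-KO libraries alone, and a region 21644 bp from the Ticam2 start (-1.41 (SE 0.48, adjusted p = 0.035)). The latter held 161, 28 and 33 normalized tags in the Nur77-KO libraries and 172, 165 and 154 in WT at 1 h. Replicate 1 again stood with WT, and from replicate 1 alone none was called. The Traf1 region over the start held 2455, 1734 and 1779 in the Nur77-KO libraries at 1 h, below the WT libraries of 2905, 3026 and 2938, but its difference of -0.59 (SE 0.13, adjusted p = 0.00486) was under the size needed for a call.

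The genes around these 10 in the pathway were read in the same fit. Over the lists together 19 of 41 rose and 20 fell in Pol II at 1 h in WT cells, against 18.6% and 68.5% of all genes, and 23 rose and 11 fell at 18 h, against 33.3% each way. On the receptor side 3 of 4 rose and 1 fell at 1 h. Tlr2, a receptor for lipopeptides, rose most (log2 change 2.65, adjusted p = 4.01e-14), while Tlr4, the LPS receptor, fell (-2.05, adjusted p = 9.33e-15). At 18 h 1 of 4 rose and 3 fell, with Cd14, the LPS carrier, lowest (-2.20, adjusted p = 8.33e-12). Of the TAK1 complex 1 of 4 rose and 3 fell at 1 h, the gain being that of Tab2 (2.08, adjusted p = 9.76e-15), a ubiquitin-binding subunit. Of the IKK complex 1 of 3 rose and 2 fell at 1 h, and 3 of 3 rose and none fell at 18 h. Of the catalytic subunits, Ikbkb rose at 1 h (2.17, adjusted p = 3.11e-13) and Chuk fell (-0.57, adjusted p = 0.00237), and Ikbkg, encoding the scaffold NEMO, fell at 1 h (-1.36, adjusted p = 4.16e-13) and rose at 18 h (1.20, adjusted p = 5.01e-12). Positive and negative values stood beside each other in each of these complexes at 1 h.

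In the TBK1 arm, downstream of Ticam1, 4 of 5 rose and 1 fell at 1 h, with Tank, an adaptor of TBK1, in front (1.87, adjusted p = 2.67e-14), followed by Traf3 (1.52, adjusted p = 9.45e-07). Of the ubiquitin enzymes 3 of 8 rose and 4 fell, with Peli1, a ligase for IRAKs, up (3.72, adjusted p = 2.9e-18) and its paralog Peli2 down (-2.94, adjusted p = 7.9e-12). Of the brakes 3 of 6 rose and 3 fell, with Nfkbia, encoding IκBα (3.63, adjusted p = 3.83e-18), and Tnfaip3, encoding A20 (3.27, adjusted p = 1.04e-17), up. Of the MAP kinases 3 of 8 rose and 4 fell, with Map2k4 up (2.12, adjusted p = 1.73e-09) and Map2k7 down (-2.16, adjusted p = 1.46e-10). Of the other TRAFs 1 of 3 rose and 2 fell, and Traf2 was the gain (1.59, adjusted p = 7.26e-11). At 18 h 3 of 4 rose and none fell of the TAK1 complex, 4 of 5 rose and none fell of the TBK1 arm, and 5 of 8 rose and 1 fell of the ubiquitin enzymes. Of the brakes 4 of 6 rose and 2 fell, of the MAP kinases 2 of 8 rose and 4 fell, and of the other TRAFs 1 of 3 rose and 1 fell.

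Between the genotypes 18 of 40 pathway genes passed the test in Pol II at 1 h, or 45%, close to the 45.8% of all genes. At 0 h 6 of 41 passed, against 6.97% of all genes, and at 18 h 10 of 40, against 21.1%. At 1 h Tollip, a brake on IRAK1 (1.15, adjusted p = 1.75e-06), Traf5 (1.15, adjusted p = 1.76e-07) and Map2k7 (0.98, adjusted p = 4.55e-05) were higher in Nur77-KO cells, while Nfkbia (-0.24, adjusted p = 0.00713), Tnfaip3 (-0.19, adjusted p = 0.0234) and Traf4 (-0.75, adjusted p = 0.000356) were lower. Tnfaip3 was higher at 0 h (0.26, adjusted p = 0.0181) and at 18 h (0.44, adjusted p = 8.79e-05), and Nfkbia was lower at 0 h as well (-0.23, adjusted p = 0.0403). At 0 h Traf3 was lower (-0.74, adjusted p = 0.026) and Traf5 higher (0.51, adjusted p = 0.00346). At 18 h Traf5 was higher (0.91, adjusted p = 3.81e-06) and Mapk14, encoding p38α, lower (-0.66, adjusted p = 2.66e-06). Traf5, a TRAF of TNF receptor family signaling, was called higher at all 3 times.

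For each of the 10 genes the protein-coding gene with the most similar Pol II pattern was found by Pearson correlation of log2 values over the 18 libraries, among 10621 genes, as a description. Traf1 was most like Jak2, a kinase of cytokine receptors (r = 0.999), Irak3 like Zdhhc18 (0.993), Irak4 like Phf1 (0.992) and Ticam2 like Tmcc3 (0.988). Ticam1 was most like Kpna4 (0.968), Traf6 like Atp7a (0.961), Irak1 like Cnnm3 (0.955), Myd88 like Tmem9b (0.878) and Tirap like Snrpb (0.877). For Irak2 it was Tatdn2, which lies in the same called region in every library and so has nearly the same values. The libraries share their groups.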

How the data were processed

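Pol II and H3K27ac were profiled by chromatin immunoprecipitation sequencing in 36 libraries, with 6 input libraries. Reads were trimmed (Skewer) and aligned to mm10 (HISAT2 2.1.0) by the authors, who called broad regions per library with HOMER after duplicate removal and without an input control. The deposited values are signal, namely normalized tag counts per region (scaled to 10000000 tags), and a region not called counts as 0. Tags were shared over gene windows of GENCODE vM21 by overlap. Log2(value + 10) was fitted in limma 3.58.1 (R 4.3.3) with an intensity trend and 6 group means over the 18 libraries of an antibody. Testing a gene required a value above 0 in 2 libraries of a compared group. The fit was tested on simulated data. Fold changes on this scale understate those of low genes. The genes named are the 10 members, Nr4a1, genes sharing a member's region, pathway genes with the largest called changes and most alike genes. Members and lists were chosen with earlier results of these data known. The alternatives covered the pseudocount, scaling, window, filter, input, variance model and libraries. The Pol II antibody's catalogue number differs between the labels and the article.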

Additional observations from a re-analysis of the deposited data

Results flagged for a closer look

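The Pol II response to LPS differed between Nur77-KO and WT cells by a test of the difference itself at 4 of the 10 genes, 2 at each time. Of all genes 18.5% passed this test at 1 h and 14.8% at 18 h, so the counts are near those of all genes. At 1 h the log2 change in Nur77-KO minus that in WT cells was 0.41 for Irak4 and -0.28 for Irak2. At 18 h it was 0.61 for Traf1 and -0.77 for Traf6. Within 500 bp of the start none of the 4 passed, but tags inside a region have no position. For Irak2, and for Traf1 after LPS, that window only holds a share of the region over the gene. The call of Irak4 was lost with each library centred on its median, and that of Traf6 with the input subtracted. No explanation of these differences was tested.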

How the results depend on the processing

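The 19 alternatives followed 111 results of single genes, those called or at least 0.2 on the log2 scale, and 18 were planned. The last, Nur77-KO H3K27ac at 1 h from replicate 1 alone, and all alternatives for regions were chosen after seeing the data. Of the single values 1636 kept direction and call, 130 lost and 36 gained the call, and 22 changed sign. The cause was not tested except where the setting itself names it.

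Centring turned Pol II log2 values to -0.0105 for Myd88 (response difference, 1 h), -0.0114 for Ticam1 and -0.0409 for Ticam2 (Nur77-KO against WT, 1 h) and 0.42 for Tirap (1 h, WT). Quantile normalization gave 0.37 for Tirap (1 h, WT), -0.0120 for Irak2 (18 h, WT) and 0.0037 for Tirap (response difference, 18 h). The narrow start window gave 0.18 in WT and 0.27 in Nur77-KO cells for Irak1 at 1 h, and for Tirap at 18 h 0.11 (Nur77-KO against WT), 0.0925 (Nur77-KO) and 0.11 (response difference). For Traf6 it gave 0.29 (Nur77-KO against WT, 18 h), -0.65 (1 h, Nur77-KO), -0.63 (1 h, WT) and -0.54 (18 h, WT). The Tirap response difference at 18 h was 0.11 with the input subtracted and from -0.507 to 0.0130 leaving out a replicate, highest without replicate 3. In H3K27ac, Traf6 at 18 h (Nur77-KO against WT) ranged from -0.0193 to 0.532 leaving out a replicate, with -0.0153 without replicate 1 and -0.0193 without the Nur77-KO 18 h replicate 1. Replicate 1 alone gave 0.11 for Ticam1 (Nur77-KO against WT, 1 h) and 0.10 for Traf1 (response difference, 1 h).

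Of the 10 genes, those called in Pol II between genotypes at 0 h went from 2 to 0 in the narrow window and to 1 in the gene body past the start. At 1 h they went from 8 to 2 with centring, 1 with quantile normalization and 3 in the narrow window, and at 18 h from 4 to 2 with quantile normalization and 1 in the narrow window. Response differences at 1 h went from 2 to 0 in the narrow window, 4 with the input subtracted and 1 without the trend, and those at 18 h from 2 to 0 in the narrow window. H3K27ac calls between genotypes at 1 h went from 3 to 0 with replicate 1 alone. Regions called with a pseudocount of 50 went in WT from 17 to 7 at 1 h and from 12 to 6 at 18 h, and in Nur77-KO cells from 10 to 4 and from 15 to 8. In the main fit of Nur77-KO cells 41 of these regions were tested at 1 h and 39 at 18 h. Of all regions tested there, 27.3% and 40.1% were called. Regions between genotypes at 1 h went from 2 to 1 with a pseudocount of 1 or centring and to 0 with a pseudocount of 50, the replicate block or replicate 1 alone, and ranged from 0 to 2 leaving out a replicate.

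Leaving out 1 replicate at a time, Pol II calls between genotypes ranged from 0 to 2 at 0 h, 1 to 8 at 1 h and 1 to 6 at 18 h, and response differences from 0 to 3 at 1 h and 1 to 2 at 18 h. H3K27ac calls ranged from 0 to 4 at 1 h and 0 to 1 at 18 h between genotypes, 5 to 8 for 1 h of LPS in Nur77-KO cells, and 0 to 4 and 0 to 1 for response differences. At 18 h Traf1 kept its response difference without replicate 1 only, and Traf6 without replicate 2 or 3. With the replicate block Pol II calls between genotypes were 7 at 1 h and 5 at 18 h. Deviations of same-numbered libraries had a median r of 0.0096 in Pol II and -0.0012 in H3K27ac, so no pairing by number was seen. This does not tell whether libraries shared animals or preparation.

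Regions list only what was called, and deeper libraries can list weaker ones. Tags inside a region have no position, so values within 500 bp of a start also depend on how far the called region extends. Regions shared with other genes limit Irak2, Myd88, Ticam1 and Ticam2, and in part Tirap, Irak1, Irak3 and Irak4.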
